A study of Mus musculus with 4 samples.

Results

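Open chromatin was examined at Hnf4a and Hnf4g, the genes of the HNF4 nuclear receptors, in the peak list of an ATAC-seq study of mouse colonic organoids. A called region was taken for a gene in either of 2 cases. It had a summit inside the gene or within 1 kb of it, or it lay more than 1 kb from the end of any annotated gene and its nearest protein-coding gene end, within 100 kb, was that of the gene. This gave 49 of the 113404 regions of the list, 28 for Hnf4a and 21 for Hnf4g.

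ATAC-seq uses the Tn5 transposase to insert sequencing adapters into accessible DNA. The organoids, cultures of wild-type colonic epithelium grown with Wnt, R-spondin, Noggin and EGF, came from mice with chronic colitis or from healthy controls. Each kind was treated for 24 h with 10 µM T-5224, an inhibitor of the transcription factor AP-1, or with 0.1% DMSO, the vehicle, and then frozen, thawed and profiled. The 4 groups held 1 library each, of 1 batch per the labels. The deposited list has 1 value per peak and none per library, and the sources used here do not give which libraries entered it. Colitis was therefore not compared with control, nor T-5224 with DMSO, and no value below has a replicate or a p-value. The strength of a summit is the authors' fold over an expected background pileup of 7.63, with 1 added to both the pileup and the background. Its 95% Poisson interval, from the recovered pileup, reflects counting error alone, and depth is not known for any library.

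HNF4A and HNF4G are paralogous nuclear receptors that bind direct repeats of the nuclear receptor hexamer as HNF4 dimers. In the intestinal epithelium they act redundantly to maintain the enterocyte programme, which includes brush border and lipid metabolism genes. Hnf4a is transcribed from a pair of promoters: P2 lies at the upstream end of the gene, and P1 lies within the gene body and is the main promoter in liver. The transcripts of P1 and P2 encode proteins with different amino termini.

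Because both Hnf4a promoters lay under called summits, their sequences are shown first, with that of Hnf4aos, a noncoding gene antisense to Hnf4a whose own start lay under no called summit. The windows are from RefSeq on GRCm38.p6, 300 bases each, on the strand of the gene, with the transcription start at base 251. Capitals mark matches to the motifs described below. P2 is chr2:163506607-163506906 on the plus strand, P1 is chr2:163546905-163547204 on the plus strand, and the Hnf4aos window is chr2:163541672-163541971 on the minus strand.
P2: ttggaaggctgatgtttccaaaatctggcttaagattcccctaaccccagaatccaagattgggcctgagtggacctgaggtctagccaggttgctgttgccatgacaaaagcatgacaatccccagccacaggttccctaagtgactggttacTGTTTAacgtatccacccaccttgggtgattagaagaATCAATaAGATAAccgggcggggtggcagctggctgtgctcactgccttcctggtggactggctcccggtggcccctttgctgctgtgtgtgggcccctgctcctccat
P1: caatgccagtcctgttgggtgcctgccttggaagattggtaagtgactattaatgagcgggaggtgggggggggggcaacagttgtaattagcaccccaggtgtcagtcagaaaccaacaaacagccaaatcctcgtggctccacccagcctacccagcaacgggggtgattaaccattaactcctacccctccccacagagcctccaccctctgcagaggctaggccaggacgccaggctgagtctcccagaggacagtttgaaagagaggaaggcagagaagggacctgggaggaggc
Hnf4aos: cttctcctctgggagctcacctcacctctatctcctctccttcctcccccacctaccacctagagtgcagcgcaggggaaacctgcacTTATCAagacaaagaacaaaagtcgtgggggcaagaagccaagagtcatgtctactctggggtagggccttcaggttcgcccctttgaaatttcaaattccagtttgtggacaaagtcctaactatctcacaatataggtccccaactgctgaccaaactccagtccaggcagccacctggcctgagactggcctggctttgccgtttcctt

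Both Hnf4a promoters were open, to nearly the same height. The summit at P2 had a fold of 23.4 (20.3 to 26.9) and lay 164 bp before the start, at base 87 of the window. The summit at P1 had a fold of 23.2 (20.1 to 26.6) and lay 6 bp before the start, at base 245. The recovered pileups were 201 at P2 and 199 at P1, so P2 held 50.2% of their sum (exact Clopper-Pearson interval 45.2 to 55.3%). The starts are 40.3 kb apart. The P2 region was 2230 bp wide with 3 summits, and the P1 region was 1741 bp wide with 4. At the start of Hnf4aos, between them, no summit lay within 500 bp, and the nearest, with a fold of 15.7, lay 2.41 kb upstream of it along its strand. Accessibility does not measure transcription, and no RNA was measured in these libraries.

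The starts of Hnf4a were closer in height than those of most genes with a pair of distant open starts. Among 487 protein-coding genes with exactly 2 listed starts at least 10 kb apart, 148 had a summit within 500 bp of both (30.4%), 247 of one and 92 of neither. The stronger start of the 148 exceeded the weaker by a median of 2.48 times (25th to 75th percentile, 1.48 to 4.51). In Hnf4a the ratio was 1.01, and 2 of the 148 genes, Hnf4a included, had a ratio this low or lower. That limit is the value of Hnf4a itself, and its counting interval (P2 share 45.2 to 55.3%) allows larger ratios. The count is therefore not a measure of how rare such a pair is. Neither promoter was among the strongest: among 21045 listed starts of protein-coding genes P2 ranked 7275th and P1 7344th by fold. That total includes starts without a summit. Both promoters lay below the median of 26.9-fold over the listed starts that had one.

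The promoter windows held few of the motifs searched, on both strands. P2 had 1 match to the GATA motif AGATAA, at bases 199 to 204, and 11.2% of 32619 windows of the same length had one. P2 and P1 had no match to the HNF4 motif CAAAGTCCA (0.478% of windows), the nuclear receptor hexamer AGGTCA (16.2%), the AP-1 motif TGANTCA (7.85%), the CDX motifs TTTATG (11.9%) and TTTATT (19.6%) or the GATA motif TGATAA (9.0%). The Hnf4aos window had 1 match to TGATAA, on the opposite strand, at bases 89 to 94. A pair of further motifs was chosen after the windows were read, so their matches cannot tell P2 from P1. P2 had the ONECUT motif ATCAAT at bases 192 to 197 (7.51% of windows), separated from the GATA match by 1 base. It also had the forkhead string TGTTTA at bases 155 to 160 (13.4%). P1 had no exact match to either, but other forms of these motifs were not searched. No motif of the HNF1 factors was searched in any window. These matches describe letters and are not binding sites. Each of the 3 windows held 4 CG dinucleotides, where the median window held 7.

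**Figure D1:**
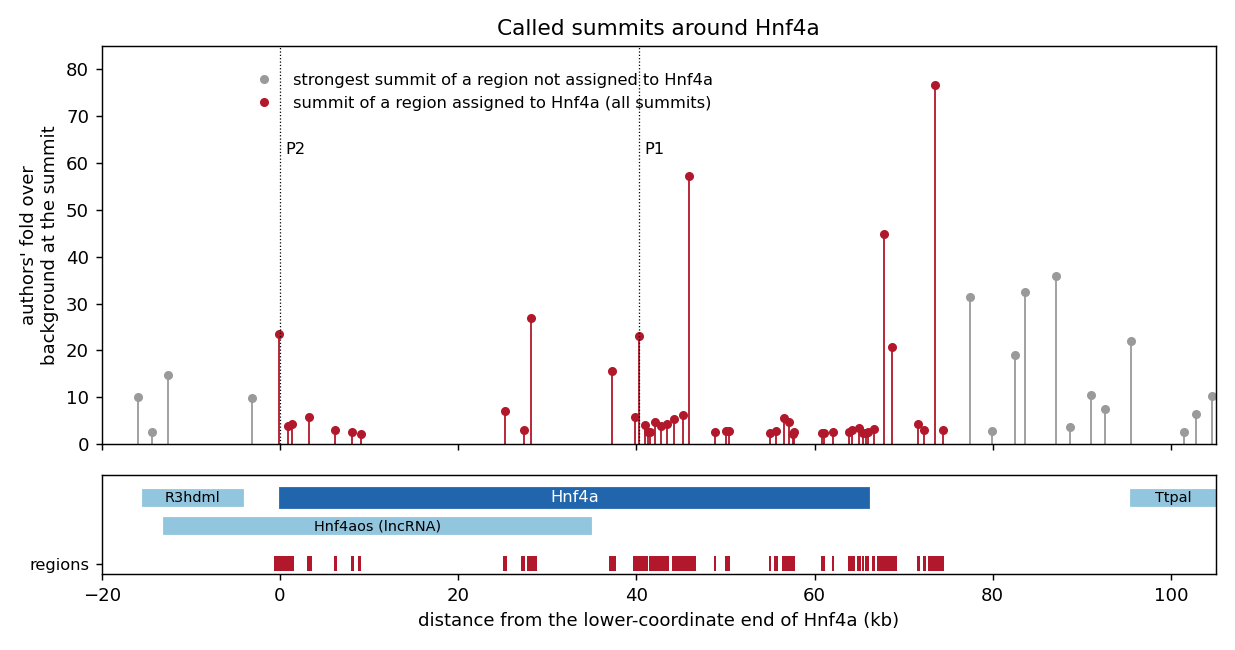
Authors' fold at called summits around Hnf4a against distance from its lower-coordinate end in kb, with dotted lines at the starts P2 and P1 and gene bounds and called regions drawn below. All summits of the 28 assigned regions are red, the strongest summit of each region not assigned is grey, and the highest value, 76.6, lies 73.6 kb from that end, beyond the gene.

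The strongest chromatin of Hnf4a (NCBI Gene 15378, chromosome 2, 163506811 to 163572907, 66.1 kb, plus strand) lay away from both promoters. The highest value, 76.6-fold (70.9 to 82.7), belonged to an 1835 bp region, 163579533 to 163581367 on chromosome 2, with its summit 7.46 kb past the end of the gene. It ranked 171st of all 113404 regions and 29th of the 92089 that lay away from gene ends. The second, 57.3-fold (52.3 to 62.5), lay inside the gene at 163550842 to 163553519, with its summit 5.59 kb downstream of the P1 start. The third, 44.9-fold (40.5 to 49.6), lay at 163573785 to 163576012, with its summit 1663 bp past the gene, beside a second summit of 20.8-fold. The intervals of these 3 regions overlapped neither each other nor those of P1 and P2. No exon annotation was used here, so whether a region inside the gene is exonic or intronic is not given.

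Between P2 and P1 lay 8 regions, most of them low. After P2 came 4 regions within 10 kb of it, with folds of 5.80, 3.01, 2.67 and 2.09, the last being the lowest value of the list. A stretch of 15.8 kb without a call followed, from 163515962 to 163531809. Beyond it a region at 163534527 to 163535628 reached 26.9-fold (23.6 to 30.6), whose interval overlapped those of both promoters, and a region 3.03 kb upstream of the P1 start reached 15.7-fold (13.1 to 18.5). A pair of weaker regions beside the first had 7.07-fold and 3.01-fold.

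A run of weak calls followed the strongest region inside Hnf4a and reached past the end of the gene. From 163555485 to 163573639, a span of 18.2 kb, lay 12 regions, the last of them wholly beyond the end. Their strongest summits had folds of 2.32 to 5.56 with a median of 2.72. In 4 equal parts of the gene counted from its P2 end, 19.5%, 12.6%, 46.3% and 32.8% of the sequence was called. The last of these had the most summits, 17, with a maximum of 5.56-fold, and the third, which holds P1, reached 57.3-fold. The first reached 5.80-fold, as the P2 summit lies just outside the gene bounds and is not counted in it. Of the whole gene body 27.8% was called, against a median of 3.90% over 5276 protein-coding genes with a length within 2-fold of that of Hnf4a, among which it ranked 110th. With a −log10 q of at least 10 the called share was 19.1%.

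The interval from Hnf4a to Ttpal, its neighbour on the higher side, was among the most open of its size. It is 29.4 kb long and 53.9% of it was called, the 7th highest share of 4671 intervals of 20 to 60 kb between neighbouring protein-coding genes, whose median was 2.23%. It held 13 summit-bearing regions, of which 5 were assigned to Hnf4a. A pair fell just outside the rule, at 31.4-fold (27.8 to 35.4) and 2.90-fold, because they lay within 1 kb of the pseudogene Gm18590. The other 6 lay nearer to Ttpal, the first of them at 19.1-fold and the strongest at 35.8-fold (31.9 to 40.0). On the lower side, a region of 9.85-fold was just outside, since it lay 1.03 kb from R3hdml and 3.16 kb from Hnf4a. The nearest gene end is a convention and does not show which gene a region acts on. When regions with edges within 12.5 kb of each other were joined, 49 regions from 163531810, inside Hnf4a, through Ttpal to Serinc3 formed a cluster of 114 kb, the 47th of 31290 clusters by number of regions. The lower part of the gene, with P2, belonged to a separate cluster of 14 regions with R3hdml and Fitm2.

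**Figure D2:**
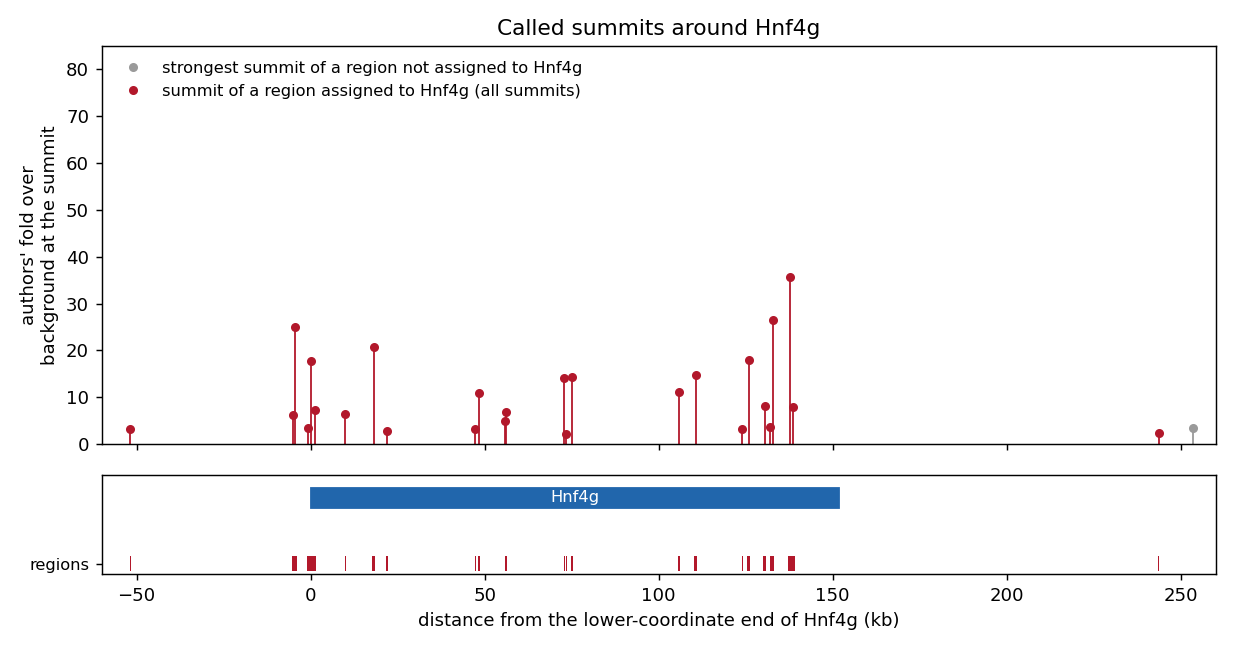
Authors' fold at called summits around Hnf4g against distance from its lower-coordinate end in kb, on the same vertical scale as the plot of Hnf4a, with the gene and called regions drawn below. The highest value, 35.6, lies 138 kb from that end, and no region lies at the higher-coordinate end.

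Hnf4g (NCBI Gene 30942, chromosome 3, 3508030 to 3659800, 152 kb) had fewer regions of 20-fold or more than Hnf4a, 4 against 6, but more between 10-fold and 20-fold, 7 against 1, over a longer gene. Its lower-coordinate end lay under a region of 2388 bp at 3507146 to 3509533 with 3 summits, the strongest 36 bp inside the gene at 17.7-fold (15.0 to 20.8). A region at 3503385 to 3504161, 4.35 kb outside that end, was higher, at 24.9-fold (21.7 to 28.5), and the intervals did not overlap. Beside it lay a region of 6.14-fold. The higher-coordinate end had no summit, and the last 12.7 kb of the gene had no call. The tables used here give neither a strand nor a listed start for Hnf4g.

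The strongest region of Hnf4g and the next lay toward its higher-coordinate end, while its other regions of 20-fold or more lay toward the lower end. The highest, 35.6-fold (31.7 to 39.8), was at 3645335 to 3647120, 14.0 kb before the higher-coordinate end, and the next, 26.4-fold (23.1 to 30.1), at 3639994 to 3641230. A region at 3633460 to 3634395 had 17.9-fold and one at 3638036 to 3638798 had 8.23-fold. Nearer the lower end the region at 3525666 to 3526645 reached 20.6-fold (17.7 to 23.9). In the middle of the gene 5 regions had between 10.9-fold and 14.8-fold, at 48.3, 72.9, 75.1, 105.8 and 110.8 kb from the lower end, and their intervals overlapped. The longest stretch without a call inside the gene was 30.1 kb, from 3583489 to 3613563.

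Hnf4g had no near protein-coding neighbour. No protein-coding gene of the table lay on its lower side, and Zfhx4, on the higher side, began 1558 kb away. Only 2 regions had a summit in that interval, which was 0.0454% called. The outermost assigned regions were a 3.13-fold region 51.8 kb below the gene and a 2.43-fold region 91.9 kb above it. A 3.36-fold region 101.8 kb above it was just outside the limit of 100 kb.

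**Figure D3:**
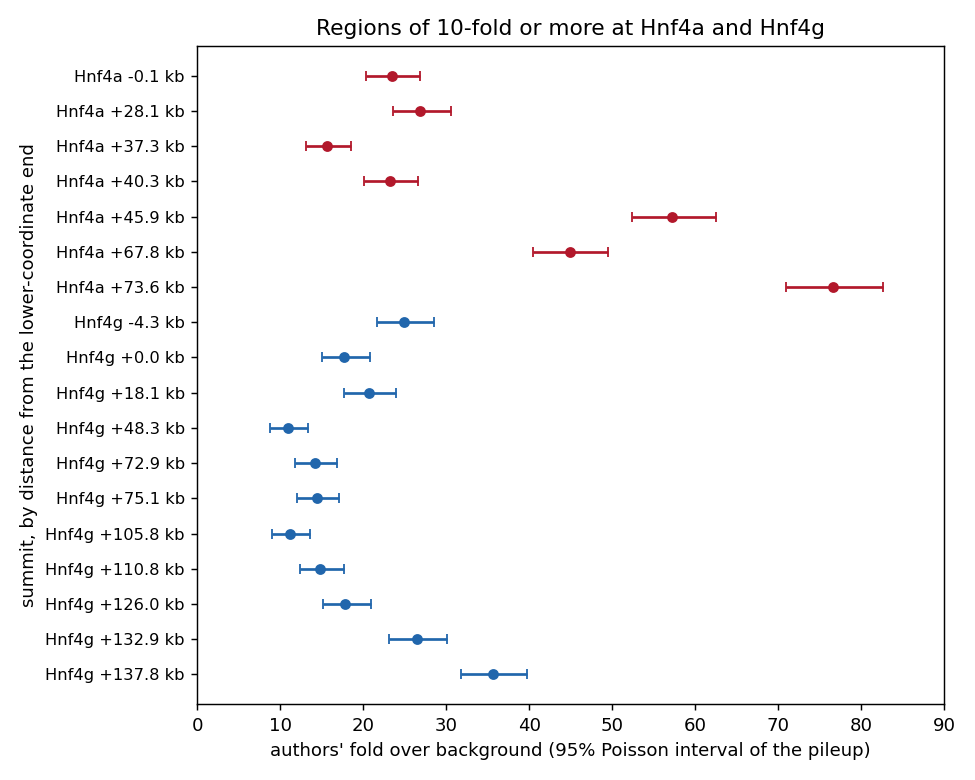
Authors' fold, with 95% Poisson intervals of the recovered pileup, at the strongest summit of each region of 10-fold or more, labelled by distance in kb from the lower-coordinate end of Hnf4a (red) or Hnf4g (blue). Hnf4a has 7 such regions, up to 76.6-fold, and Hnf4g has 11, up to 35.6-fold.

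The 28 regions of Hnf4a held 47 summits and the 21 of Hnf4g held 26. Of the 28 at Hnf4a, 6 had at least 20-fold and 1 between 10-fold and 20-fold, and 16 were below 4-fold. Of the 21 at Hnf4g, 4 had at least 20-fold, 7 had 10-fold to 20-fold, and 6 were below 4-fold. Over all regions of the list, 13.9% had at least 20-fold and 39.3% were below 4-fold. The median fold was 3.07 at Hnf4a and 10.9 at Hnf4g, against 4.99 over all regions. The order of these medians turned on the weak regions of Hnf4a: with a −log10 q of at least 10 they were 19.4 and 14.4. More than 1 summit was called in 11 of the 28 regions and in 4 of the 21, against 21.6% of all regions. Median widths were 475 and 591 bp. Inside the gene there were 3.48 regions per 10 kb in Hnf4a and 1.12 in Hnf4g.

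Both genes held more regions than most. The 28 of Hnf4a ranked 403rd and the 21 of Hnf4g 768th of 21631 protein-coding genes, whose median was 3. Among genes of like length, within 2-fold, Hnf4a ranked 131st of 5276 (median 6) and Hnf4g 410th of 2755 (median 9). Which of the pair had more depended on the weak calls: with a −log10 q of at least 10, Hnf4a had 12 regions and Hnf4g 15, ranks 857 and 521. By the strongest summit inside the gene Hnf4a ranked 499th and Hnf4g 2916th of all protein-coding genes. By the strongest summit at an outer end they ranked 7680th and 9063rd, but within 2000 bp of an end Hnf4a had 44.9-fold, from the region past the gene. Within 2-fold of their length they ranked 175th of 5276 and 625th of 2755 by the strongest summit inside the gene, and the called share of Hnf4g, 8.30%, ranked 473rd.

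**Figure D4:**
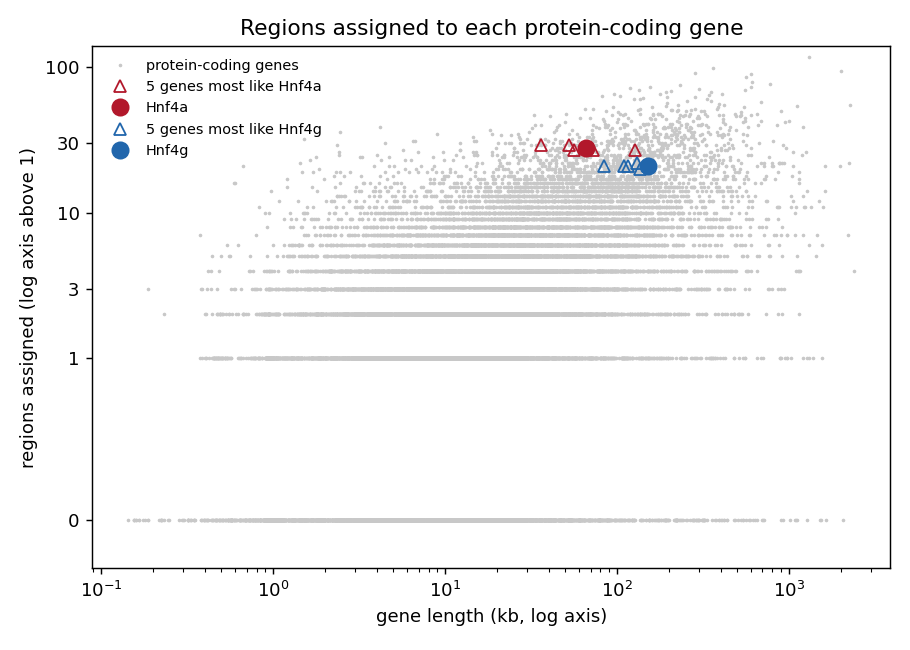
Number of regions assigned to each of 21631 protein-coding genes (grey) against gene length in kb, both on log axes. Hnf4a (red, 28 regions, 66.1 kb) and Hnf4g (blue, 21 regions, 152 kb) lie in the upper part of genes of their length, among the 5 genes most like each (triangles).

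The genes most like Hnf4a, by the number of assigned regions and the strongest fold inside the gene on log2 scales, among 5275 others of like length, were Ocln, Frk, Rab11fip1, Klf13 and Rnf43. They had 27 to 29 regions and 54.5-fold to 59.2-fold. Ocln encodes the tight junction protein occludin, and Rnf43 a ubiquitin ligase that removes Wnt receptors. Those most like Hnf4g, among 2754, were Lrrc1, Scaf8, Nr3c1, Nt5c2 and Ctnna1, with 20 to 22 regions and 34.4-fold to 36.6-fold. Nr3c1 encodes the glucocorticoid receptor and Ctnna1 alpha-catenin. The genes most like Hnf4a had higher values at an outer end, 34.2-fold to 87.3-fold, than the 23.4-fold of Hnf4a itself.

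Markers of the labelled cell type were open. All 8 epithelial markers had a summit within 1000 bp of an outer end, from 16.8-fold at Krt20 to 59.1-fold at Krt8, where 64.3% of 21631 protein-coding genes had one. Such a summit was found at 2 of 6 leukocyte markers (Itgam 4.99-fold, Spi1 25.7-fold), at 1 of 6 mesenchymal and endothelial markers (Col1a1, 16.3-fold) and at 2 of 5 hepatocyte markers (Alb 5.56-fold, Apoa2 11.2-fold). Inside the gene, where 69.6% of all protein-coding genes had a summit, one was found at 2 of 6 leukocyte, 5 of 6 mesenchymal and endothelial and 3 of 5 hepatocyte markers. Apoa2, of the hepatocyte list, reached 64.5-fold there, above each of the 8 epithelial markers inside the gene. Pdgfra, a fibroblast marker, reached 8.81-fold inside the gene and Cdh5, an endothelial cadherin gene, 8.35-fold. Ptprc, Cd3e, Lyz2, Col1a2 and Ahsg were among those with none at an end or in the gene.

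Genes that HNF4 is known to act on in the intestine were open at their ends. All 12 brush border genes had a summit, where 64.3% of all protein-coding genes had one. Their median fold was 26.1, against 9.62 over all protein-coding genes, where a gene without a summit counts as 0. Over listed starts of protein-coding genes that had a summit the median was 26.9-fold, so the brush border median was not above that of open starts. Cdhr5, a protocadherin that links microvilli, had 41.7-fold (37.5 to 46.3), and Ezr, which encodes the membrane to actin linker ezrin, 40.2-fold (36.1 to 44.7). Vil1, the villin gene, had 38.1-fold. Inside the gene, Myo7b, a microvillar myosin, reached 75.8-fold. All 12 fatty acid oxidation genes also had one at an outer end, against the same 64.3%, with a median of 36.6-fold. Etfdh, of the electron transfer to the respiratory chain, had 81.0-fold (75.1 to 87.3) and Acadm, a medium-chain dehydrogenase, 66.5-fold (61.2 to 72.2). Hadha and Hadhb, the subunits of the trifunctional protein, shared 1 value of 36.6-fold at neighbouring ends.

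Genes that HNF4A is known to act on in liver were a mixed set. Whether they are also its targets in the intestine was not considered, so the list does not separate the organs. Of 10, 6 had a summit at an outer end, near the 64.3% of all genes, and the median was 5.80-fold. Mttp, the lipid transfer protein of lipoprotein assembly, had 57.2-fold (52.2 to 62.4), and Pck1, of gluconeogenesis, 43.2-fold (39.0 to 47.9), although within 1 kb of a listed start of Pck1 the value was 16.3-fold. Apoa4, Apoc3, Ttr and Cyp7a1 had none at an end, and Apoa4 and Apoc3 had none in the gene. Alb had 5.56-fold at an outer end but none within 1 kb of its listed start. The difference from the intestinal lists was not tested.

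**Figure D5:**
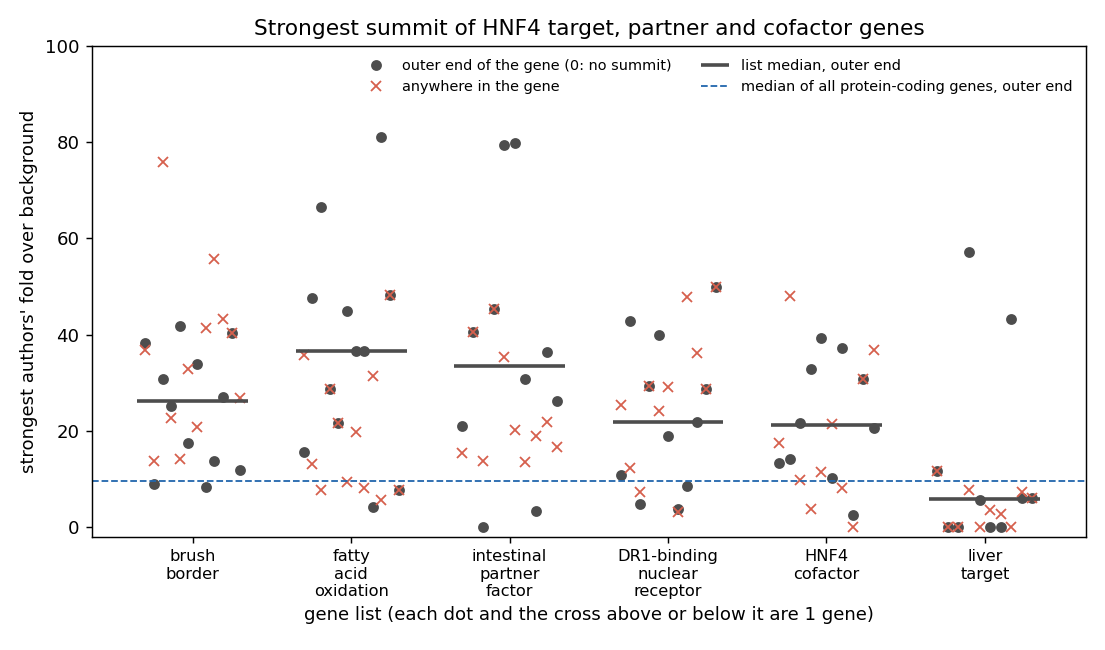
Strongest authors' fold over background at an outer end (dots, 0 without a summit) and anywhere in the gene (crosses) for each gene of the 6 lists, with the list median at outer ends as a bar. The dashed line is the median of all protein-coding genes at outer ends, 9.62, with genes lacking a summit counted as 0. The liver target list is the one with a median below it, 5.80.

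Genes of factors that share sites or act with HNF4 had a summit at an outer end with 1 exception. Over all protein-coding genes the share with one was 64.3% and the median 9.62-fold, with genes lacking a summit counted as 0. Over listed starts of protein-coding genes that had a summit the median was 26.9-fold. Of 10 intestinal partner factor genes 9 had one, with a median of 33.5-fold, and 8 had one with a −log10 q of at least 10. Creb3l3 was the lowest of the 9, at 3.36-fold (2.27 to 4.81), and reached 18.9-fold inside the gene. Elf3, an epithelial ETS factor, had 79.8-fold (73.9 to 86.0) and Klf5, a factor of proliferating crypt cells, 79.3-fold (73.5 to 85.5). Gata4, a factor of the proximal intestine, had none there and 13.7-fold inside the gene, while Gata6 had 45.2-fold. All 11 genes of nuclear receptors that bind the same spaced repeat had one, with a median of 21.9-fold, led by Nr2c2, a testicular receptor gene, at 49.9-fold (45.3 to 54.8) and Rxrb, a retinoid X receptor gene, at 42.8-fold (38.5 to 47.4). Nr2f1, a COUP receptor gene, was lowest at 3.83-fold.

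All 10 cofactor genes had a summit at an outer end, against 64.3% of all protein-coding genes. Their median of 21.1-fold was below the 26.9-fold median of listed starts that had a summit. Crebbp, a histone acetyltransferase, had 39.3-fold (35.2 to 43.7) and Med1, a Mediator subunit, 37.2-fold (33.3 to 41.5). Ppargc1a, a coactivator of oxidative metabolism, had 10.2-fold and Nr0b2, the receptor that represses HNF4A, 2.55-fold. Neither Ppargc1a nor Nr0b2 had a summit within 1 kb of a listed start, where 64.5% of 17274 protein-coding genes with a listed start had one. At Nr0b2 there was also none inside the gene, while Ppargc1a had 40 assigned regions and reached 21.4-fold within it. The values of Hnf4a (23.4-fold) and Hnf4g (17.7-fold) at their own outer ends lay inside the range of each of these 3 lists.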

How the data were processed

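Bulk ATAC-seq was made from 4 libraries, 1 in each of 4 groups, per the labels. The authors deposited a single peak list. The submitters' processing notes name Bowtie2, MACS2 and mm10 but no versions; the thresholds and the libraries called are unknown here. The authors' columns used were the fold enrichment at the summit (a linear ratio), the −log10 p and −log10 q, and the summit position. The deposited score was checked to be 10 times the −log10 q without its decimals. Multiplied by a constant, every deposited fold value came out whole (tolerance 0.01). Taking 1 from each whole number gave pileups between 17 and 8197, over 1 background for every base. Copy number and mappability were thus not divided out. Whether duplicates were removed is not stated, and copies of 1 molecule would make the intervals too narrow.

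Genes came from a RefSeq table on GRCm38.p6, the assembly mm10 represents, which gives outer bounds without exons, and starts from RefSeq promoter windows. Python 3.11.15, numpy 2.4.6, pandas 2.3.3 and scipy 1.17.1 were used. Placement was tested on simulated data. The members, gene lists and markers were chosen with earlier results of these data known, and all values describe 1 peak list. Genes were named by rule: both members, their neighbours, the 2 highest of each list at an outer end with those lacking a summit, and the 5 genes most alike. Vil1, Myo7b, Hadha, Hadhb, Alb, Pdgfra, Cdh5, Gata6, Creb3l3, Nr2f1, Ppargc1a, Nr0b2, Serinc3 and Fitm2 were named after their values were seen. Other windows, distance limits, q limits and motif lengths were tried.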

Additional observations from a re-analysis of the deposited data

How the results depend on the processing

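Of 65 alternative values for 17 results, 51 stayed within the counting interval of the reported value or within 1.5 times a reported count. This tally is not a measure of robustness, because some of the alternatives could not move their value. A list in which every gene has a summit cannot change with a wider window. A −log10 q limit of 10 cannot remove the strongest summits, which lie far above it. With a −log10 q of at least 10, Hnf4a had 12 regions with a median of 19.4-fold and 19.1% of its body called, and for Hnf4g the median was 14.4-fold and the called share 7.46%. Counting summits gave 47 at Hnf4a, and a median over summits of 7.65-fold at Hnf4g. The strongest summit at an outer end of Hnf4a was 44.9-fold with windows of 2000 and 5000 bp, which reach the region past the gene, and that of Hnf4g 24.9-fold with 5000 bp. Summits inside Hnf4a alone gave 57.3-fold. Within 1 kb of a listed start, an alternative chosen after the data were seen, 5 of 5 partner factor and 5 of 7 cofactor genes with such a start had a summit. Shorter motif cores gave 5 matches in P1 and P2, against 1. Of these, 4 were to the AP-1 core GANTC, which 61.4% of all windows hold. The Hnf4aos window had 1 match to the HNF4 core AAAGTCC, at bases 201 to 207 (4.23% of windows). It also had 1 match each to the half-site core GGTCA (40.6%), to GANTC and to the GATA core GATAA (25.4%). Core matches are not capitalised in the sequences shown. No paired analysis was possible because each group held 1 library and the list has no value per library, and no replicate could be left out. Depth per library is unknown, so a gene without a summit is one without a call, not one shown to be closed.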
